A study of Mus musculus with 36 samples.

Results

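Astrocytes are the glial cells that clear glutamate from synapses, make glutamine from it, buffer water and ions, supply neurons with lactate and lipids, and secrete proteins of the extracellular matrix. In the rodent cortex they arise from radial glia around birth, so that cells dissociated from an embryonic cortex carry few of them at first. The 33 genes described here are commonly used as astrocyte genes and were chosen by name: rows of the deposited count table whose GENCODE symbol was on the list and whose mean count over 36 libraries was above 5. Of the 33, 31 passed, out of 20355 genes that passed in all and 55492 entries in the table. Slc39a12, a zinc transporter, and Gjb6, a gap junction protein, did not pass, with mean counts of 3.83 and 0.75.

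The cultures were dissociated cortical cells of C57 mouse embryos at embryonic day 18, bought as a cell product, plated as primary neurons and kept 10 days in vitro. They then received fresh medium (control), 1 µM dexamethasone (DEX), a synthetic glucocorticoid receptor agonist, or 1 µM DEX with 1 µM of the receptor antagonist mifepristone (DEX + RU-486) for 72 h, with the agents renewed at 48 h. The 3 groups held 12 libraries each, 6 in each of 2 batches, and no group was given RU-486 alone. The comparisons ask whether astrocyte genes moved with chronic DEX and whether the antagonist changed that. The sources do not say whether the 12 replicates came from separate platings, so p-values measure the spread between these libraries, which may be partly technical. In RNA from whole cultures, fewer cells of a type and less RNA per cell cannot be told apart.

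Library totals, given in M (mega) counts, ran from 12.1 M to 82.4 M. In batch 1, depth and RNA integrity number (RIN) went with the treatment: control libraries had 24.2 to 82.4 M counts and RIN 7.8 to 9.2, DEX libraries 12.1 to 22.3 M counts and RIN 3.9 to 7.8, and DEX + RU-486 libraries 17.4 to 26.7 M counts and RIN 5.6 to 7.9. In batch 2 every group held 2 libraries whose RIN was under 3 and 4 whose RIN was at least 7.4, so batch 2 was compared over the 4 of RIN 6 or above in each group. Fkbp5, a standard glucocorticoid receptor target, overlapped between groups: in batch 1 its level in counts-per-million units (CPM) spanned 14.03 to 20.4 in control and 10.5 to 25.2 CPM in DEX libraries, and it was not called. Tsc22d3, another target, was higher under DEX in batch 1 by a log2 difference of 0.67 (SE 0.22, edgeR adjusted p = 0.0351), from 5.63 to 12.8 CPM in control to 10.4 to 20.7 CPM in DEX.

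The promoters of 4 of the genes that were higher in batch 1 are printed to show what sequence stood before their start sites. Each window runs from 250 bases before to 50 bases after the start in RefSeq (GRCm38.p6), 5′ to 3′ on the gene's strand. Shown are the 2 largest rises with a single start in the table, Gfap and Gja1, and the 2 of that kind that held a glucocorticoid receptor half-site, Bcan and Plpp3. Capitals mark AGAACA or its reverse complement TGTTCT (half-site), or TTCNNNGAA (STAT element), which reads the same on both strands. Both strands were also searched for the full glucocorticoid response element (AGAACA and TGTTCT with 3 bases between, so that it also holds the half-site) and the TATA box TATAAA. The windows are chr11:102897151-102897450 (minus strand, Gfap, intermediate filament), chr10:56377050-56377349 (plus strand, Gja1, connexin 43), chr3:88000307-88000606 (minus strand, Bcan, the matrix proteoglycan brevican) and chr4:105157097-105157396 (plus strand, Plpp3, a lipid phosphate phosphatase).
Gfap: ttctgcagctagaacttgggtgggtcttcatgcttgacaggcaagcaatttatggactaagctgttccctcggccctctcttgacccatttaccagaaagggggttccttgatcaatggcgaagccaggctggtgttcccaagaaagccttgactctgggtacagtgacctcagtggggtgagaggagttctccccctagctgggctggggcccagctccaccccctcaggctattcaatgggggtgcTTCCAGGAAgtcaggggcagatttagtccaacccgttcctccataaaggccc
Gja1: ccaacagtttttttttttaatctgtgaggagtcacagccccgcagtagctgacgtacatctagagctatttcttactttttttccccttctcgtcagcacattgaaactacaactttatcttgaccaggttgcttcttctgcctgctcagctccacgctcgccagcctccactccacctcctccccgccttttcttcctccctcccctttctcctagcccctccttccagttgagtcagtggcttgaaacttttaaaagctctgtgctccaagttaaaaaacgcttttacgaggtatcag
Bcan: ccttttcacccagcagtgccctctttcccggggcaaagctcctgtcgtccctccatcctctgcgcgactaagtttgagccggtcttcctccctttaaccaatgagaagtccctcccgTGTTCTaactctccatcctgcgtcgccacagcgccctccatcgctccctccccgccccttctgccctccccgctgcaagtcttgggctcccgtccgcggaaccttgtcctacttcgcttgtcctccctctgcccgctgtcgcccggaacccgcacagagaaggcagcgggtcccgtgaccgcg
Plpp3: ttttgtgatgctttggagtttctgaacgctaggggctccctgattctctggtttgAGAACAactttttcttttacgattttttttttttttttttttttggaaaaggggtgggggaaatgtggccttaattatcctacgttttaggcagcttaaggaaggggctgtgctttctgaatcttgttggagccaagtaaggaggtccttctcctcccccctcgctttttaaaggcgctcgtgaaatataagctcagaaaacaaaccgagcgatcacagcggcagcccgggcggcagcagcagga

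A half-site began 133 bases before the start in Bcan, as TGTTCT, and 195 bases before it in Plpp3, as AGAACA. In Gfap the STAT element lay across the start, from 2 bases before it. None of the 4 motifs was in the Gja1 window. RefSeq windows were found for 29 of the 33 genes, 39 windows in all. The half-site was in 7 of the 39 (17.9%) against 19% of all 32851 windows, the STAT element in 5 (12.8%) against 8.3%, and the TATA box in 8 (20.5%) against 13.6%. The full response element was in 0 of the 39 and in 3 of all windows (0.00913%). Such a match is a description of letters and was not tested for binding.

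The cultures were rich in neuronal RNA, and the astrocyte markers Gfap, Gja1, Aqp4 and Aldh1l1 were scarce in them. Levels between genes are given in transcripts-per-million units (TPM), which allow for gene length, as medians over the 6 control libraries of batch 1 and then the 4 of batch 2 with RIN 6 or above. Gfap, the filament protein of astrocytes, stood at 0.20 and 0.36 TPM. Gja1 was at 0.051 and 0.21 TPM, Aqp4, the water channel of astrocyte endfeet, at 0.15 and 0.28 TPM, and Aldh1l1, a folate enzyme used as a pan-astrocyte marker, at 0.49 and 0.72 TPM. In the same libraries the neuronal tubulin Tubb3 stood at 803 and 469 TPM and the microtubule protein Map2 at 243 and 172 TPM. Among all genes tested, ordered by control TPM in batch 1, Gfap stood at percentile 11.4 and Gja1 at percentile 3.40, so that the markers that define the cell type were present at low levels only.

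The most abundant genes of the list in both batches are ones that other brain cells also express. Sparcl1, a secreted synapse-organizing protein also known as hevin, was the highest at 468 and 146 TPM, followed by Cst3, the protease inhibitor cystatin C, at 143 and 91.2 TPM and Glul, glutamine synthetase, at 39.8 and 29.3 TPM. The next in batch 1 were Ttyh1, a chloride channel family protein, at 15.8 TPM and Acsl6, an acyl-CoA synthetase, at 15.1 TPM, whose ranges overlapped, and in batch 2 Fabp7, a fatty acid binding protein of glia and progenitors, at 27.2 TPM and Apoe at 18.0 TPM. Both glial glutamate transporters were at a few TPM, Slc1a3 (GLAST) at 4.96 and 4.44 and Slc1a2 (GLT-1) at 2.80 and 3.39. Gjb6 was the lowest, with no read in 26 of 36 libraries. A count of 0 allows up to 3 counts, which is 0.0288 to 0.31 CPM depending on the library, and 9 of the 33 genes had such a library, Aqp4 in 5.

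**Figure D1:**
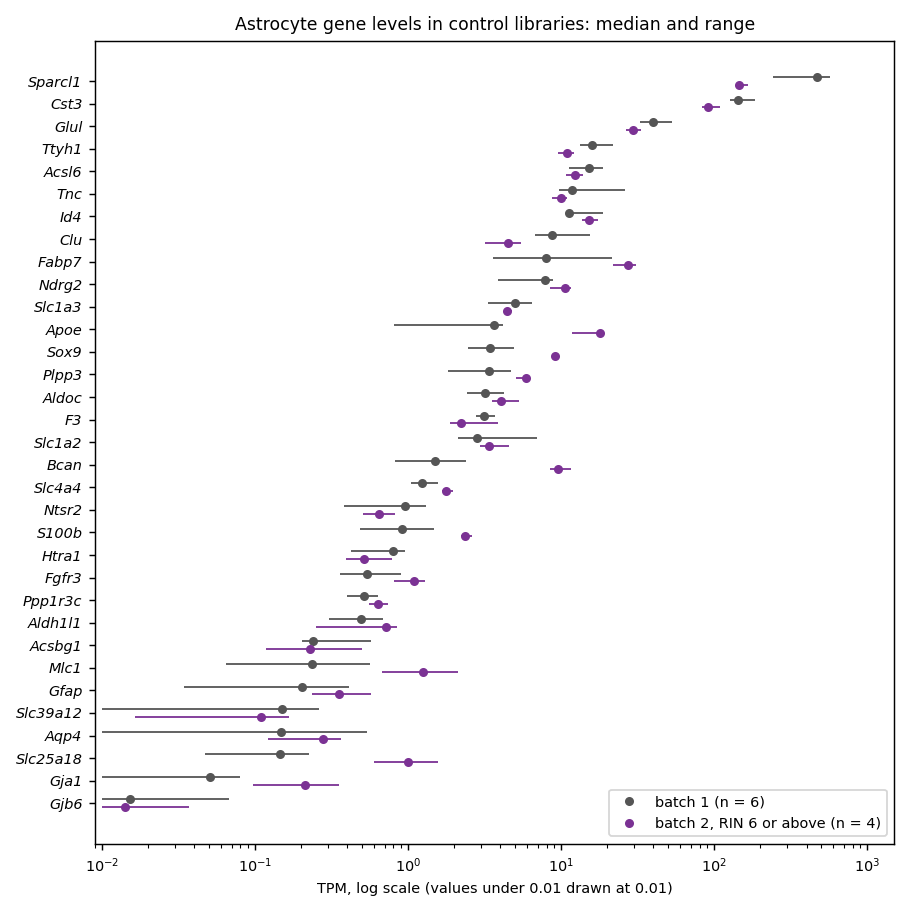
Level of each of the 33 genes in control libraries as TPM on a log axis; points are medians and lines the range over 6 libraries of batch 1 or 4 libraries of batch 2 with RIN 6 or above. Sparcl1, Cst3 and Glul lead in both batches, and Gja1, Aqp4 and Gfap lie under 1 TPM in every library shown.

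Over both batches, none of the 31 genes was called between DEX and control by edgeR with batch as a covariate, where 0.0147% of all genes were called as higher and 0.00983% as lower (0.0246% in either direction). An unadjusted p under 0.05 was found for 8 as higher and 0 as lower, where 6.86% and 10.1% of all genes had one, and DESeq2 called 4, all higher, where it called 1.15% of all genes as higher. The median log2 fold change of the 31 was 0.20, against -0.0066 over all genes. The smallest adjusted p values belonged to Plpp3 (log2 fold change 0.84, SE 0.24, adjusted p = 0.085), Aldoc, the brain aldolase of glycolysis (1.22, SE 0.35, adjusted p = 0.0869), Apoe, the lipid carrier apolipoprotein E (1.12, SE 0.33, adjusted p = 0.0926), and Gja1 (1.70, SE 0.54, adjusted p = 0.111). Those 4 were the ones DESeq2 called. Keeping only the 28 libraries of RIN 6 or above gave 10 calls, 9 higher and Acsl6 lower, where 19.7% of all genes were called; they included Slc1a3 (0.41, SE 0.12, adjusted p = 0.0165), which edgeR did not call in either batch alone, and not Fabp7. With RIN as a further covariate in those libraries the count was 0, where 0.0933% of all genes were called. Over all 36 libraries with that covariate, edgeR called 2 as higher, where 0.919% of all genes were higher and 1.32% lower. They were Aldoc (0.87, SE 0.22, adjusted p = 0.0353) and Plpp3 (0.59, SE 0.17, adjusted p = 0.0492).

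**Figure D2:**
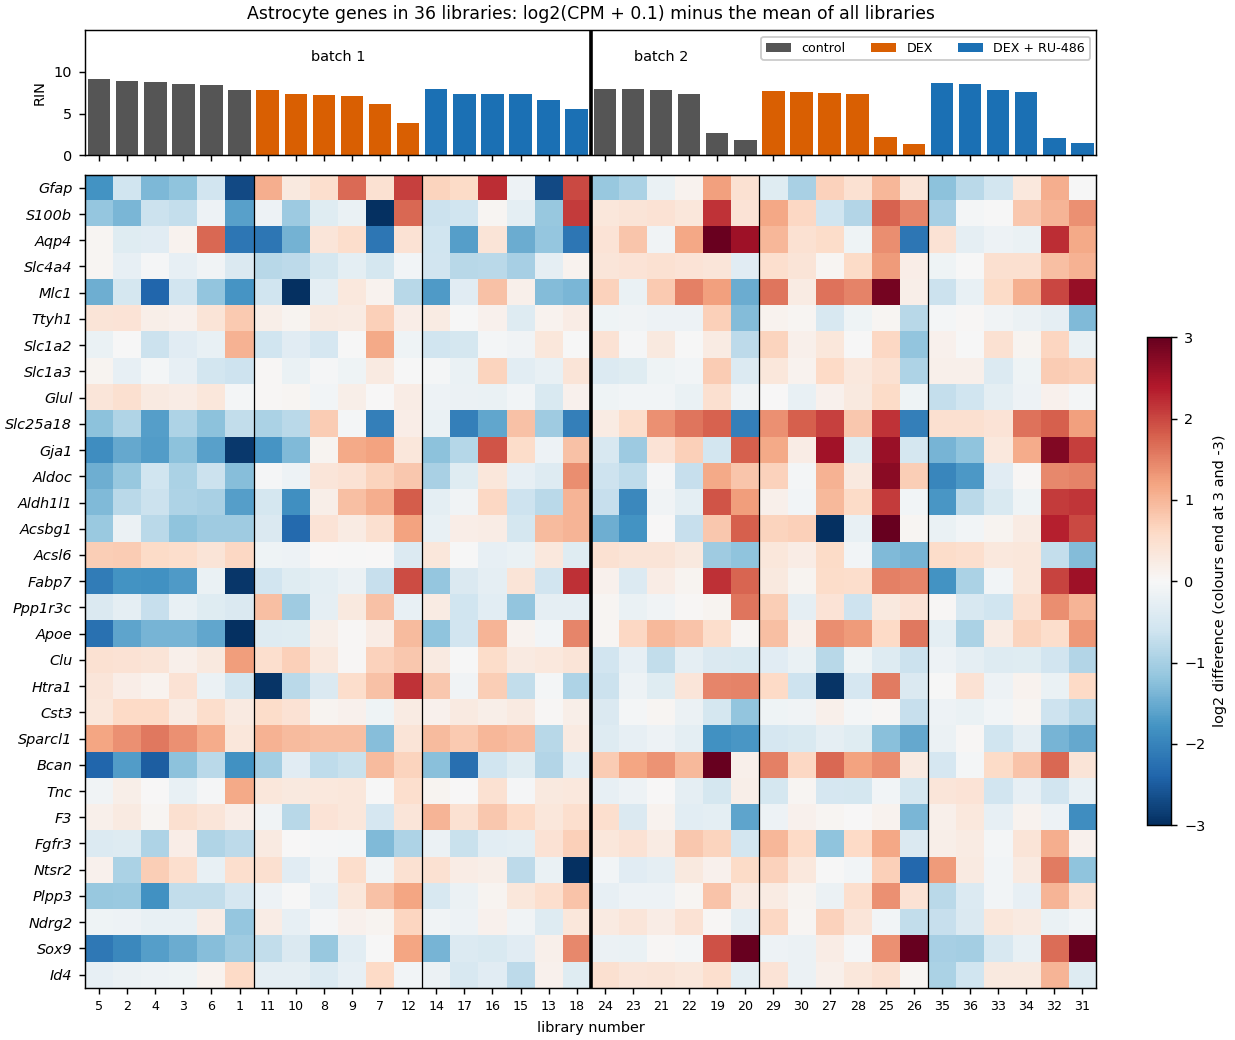
Each row is one of the 31 genes and each column one of 36 libraries, ordered by batch, group and RIN; colour is log2(CPM + 0.1) minus the gene's mean over all libraries, and the bars above give RIN. Within batch 2 the 6 columns of RIN under 3 are the highest in Sox9 and Fabp7 (red) and the lowest in Acsl6 and Sparcl1 (blue), in all 3 groups.

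Within batch 1 alone, 9 of the 31 genes were higher with DEX and 1 was lower, where 8.99% of all genes were higher and 9.99% lower. Their median log2 fold change was 0.41, against 0.058 over all genes. In 4 of the 9 the DEX libraries all exceeded the control libraries, and in 1 gene they all lay below them, where 3.2% and 6.66% of all genes did so. The genes that were higher were the filament gene Gfap, the junction gene Gja1, the metabolic genes Aldoc, Aldh1l1 and Fabp7, the secreted proteins Apoe and Bcan, Plpp3 and the transcription factor Sox9.

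Gfap was at 0.050, 0.304 and 0.555 CPM (lowest, median, highest) in control libraries and at 1.09, 1.63 and 3.92 CPM in DEX libraries of batch 1. The groups did not overlap, and the log2 fold change came to 2.73 (SE 0.64, adjusted p = 0.00577). The counts behind these levels were small, from 1 to 110 reads in the 36 libraries. S100b, a calcium-binding protein of astrocytes and oligodendrocyte precursors, spanned 0.251 to 0.883 CPM in control and 0 to 3.48 CPM in DEX libraries, with the 0 in library 7, whose count allows up to 0.247 CPM. Its fold change of 1.12 (SE 0.68, adjusted p = 0.263) did not pass.

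The gap junction gene Gja1 was at 0.025, 0.196 and 0.295 CPM in control and 0.174, 0.977 and 2.06 CPM in DEX libraries, and the groups overlapped in the lowest DEX libraries. Its log2 fold change came to 2.57 (SE 0.66, adjusted p = 0.00966). Among the transport genes none was called. Aqp4 was at 0 to 1.36 CPM in control and 0 to 0.542 CPM in DEX libraries (-0.67, SE 0.91). The bicarbonate cotransporter Slc4a4 was at -0.30 (SE 0.20), Mlc1, a membrane protein of endfeet, at 0.98 (SE 0.67) and Ttyh1 at -0.068 (SE 0.13).

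Glutamate handling showed no call with DEX in batch 1. Slc1a2 was at 9.69, 13.2 and 31.7 CPM in control and 10.1, 13 and 33.6 CPM in DEX libraries, with one high library in each group. Slc1a3 was at 10.99, 14.3 and 18.1 CPM against 14.8, 16.8 and 20.3 CPM, a log2 difference of 0.28 (SE 0.16, adjusted p = 0.241). Glul was at 38.1, 49.0 and 55.2 CPM against 37.5, 40.9 and 46.0 CPM (-0.17, SE 0.11, adjusted p = 0.273). The mitochondrial glutamate carrier Slc25a18 was at 0.0316 to 0.150 CPM in control and 0 to 0.609 CPM in DEX libraries (1.42, SE 0.86, adjusted p = 0.26).

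Of the metabolic genes, Aldoc was at 2.61, 3.52 and 4.80 CPM in control and 6.59, 9.66 and 13.02 CPM in DEX libraries, without overlap (1.43, SE 0.31, adjusted p = 0.00364). Aldh1l1 was at 0.476, 0.844 and 1.07 CPM against 0.408, 2.64 and 6.32 CPM (1.85, SE 0.47, adjusted p = 0.00893). Fabp7, the fatty acid binding protein of radial glia and young astrocytes, was at 1.55, 3.46 and 10.8 CPM against 7.57, 9.90 and 47.9 CPM (1.91, SE 0.57, adjusted p = 0.0235). The 47.9 CPM belonged to library 12, the DEX library of RIN 3.9, and the next highest was at 10.9 CPM. Without library 12 alone Fabp7 was at 1.15 and no longer passed (adjusted p = 0.131), nor did it without control library 1, 2 or 5 (adjusted p = 0.051, 0.0537 and 0.057). In the batch 1 libraries of RIN 6 or above, which leave out library 12 and DEX + RU-486 library 18, it passed at 1.17 (SE 0.35, adjusted p = 0.0233). Acsl6 went the other way, at 44.9, 52.3 and 58.6 CPM against 26.1, 32.9 and 34.7 CPM, without overlap (-0.68, SE 0.12, adjusted p = 0.00108). Acsl6 is also expressed by neurons. Acsbg1, a long-chain acyl-CoA synthetase, was at 1.34 (SE 0.50, adjusted p = 0.0634) and passed without DEX library 10, at 1.56 (adjusted p = 0.0178).

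Among secreted and matrix genes, Apoe was at 0.601, 2.76 and 3.13 CPM in control and 6.39, 9.04 and 16.2 CPM in DEX libraries (2.06, SE 0.41, adjusted p = 0.00201). No DEX library reached down to the control range. Bcan was at 1.17, 2.00 and 3.91 CPM against 3.37, 4.88 and 13.4 CPM (1.69, SE 0.39, adjusted p = 0.00495), overlapping only through DEX library 11. The abundant Sparcl1 was at 248, 474 and 586 CPM against 80.5, 366 and 406 CPM (-0.52, SE 0.30, adjusted p = 0.239), and Cst3 at -0.17 (SE 0.11). The chaperone Clu, the protease Htra1, the matrix protein Tnc and the coagulation receptor F3 spanned -0.21 to 0.60 and did not pass. Without control library 1, Tnc passed at 0.35 (adjusted p = 0.0435).

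Of the signalling and regulatory genes, Plpp3 was at 2.02, 3.84 and 5.13 CPM in control and 6.15, 8.30 and 16.7 CPM in DEX libraries, without overlap (1.44, SE 0.27, adjusted p = 0.00162). Sox9, a factor that sets the glial fate, was at 3.35, 5.02 and 7.11 CPM against 6.83, 11.7 and 34.5 CPM (1.57, SE 0.40, adjusted p = 0.00923), with the highest value again in library 12. Id4, an inhibitor of differentiation factors, was at -0.070 (SE 0.19), the receptors Fgfr3 and Ntsr2 at 0.29 (SE 0.33) and 0.011 (SE 0.47) and Ndrg2 at 0.41 (SE 0.19, adjusted p = 0.135).

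**Figure D3:**
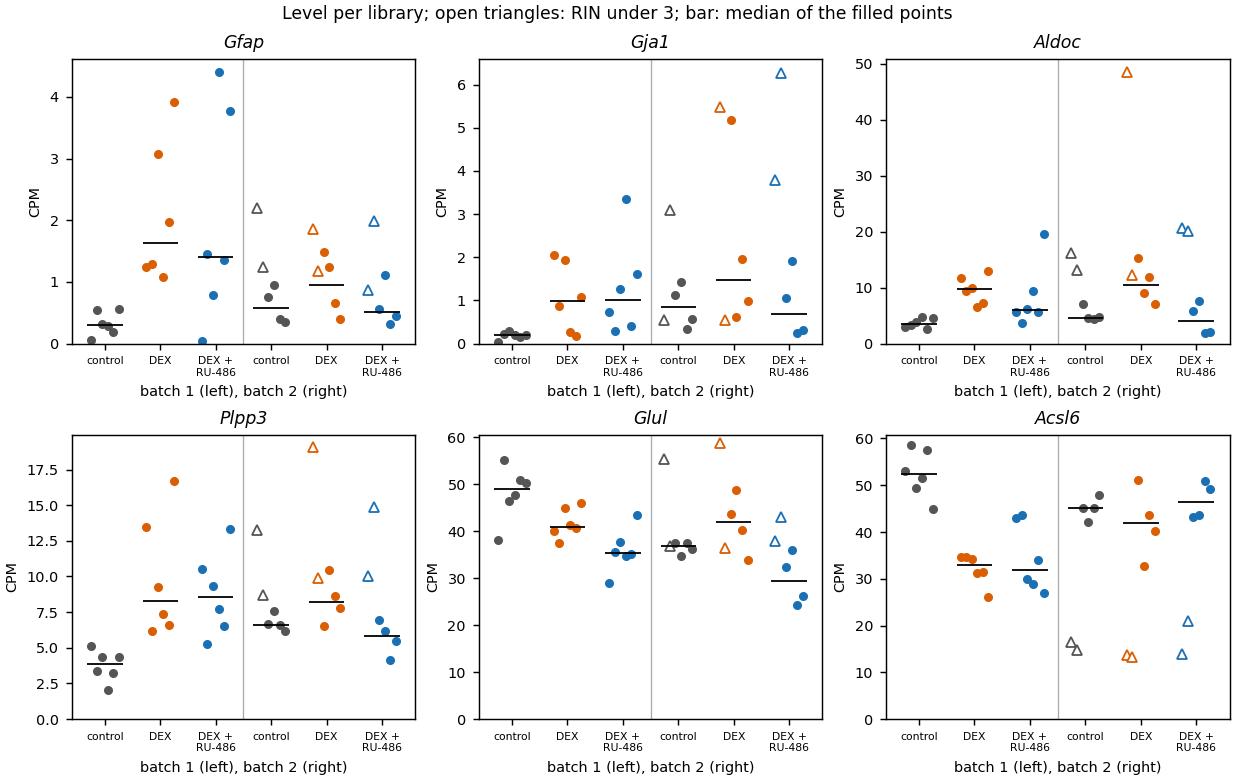
CPM of 6 genes in every library by batch and group; filled points have RIN above 3, open triangles RIN under 3, and bars mark the median of the filled points. In batch 1 the DEX points of Gfap, Aldoc and Plpp3 lie above all control points and those of Acsl6 below; in batch 2 the filled points of control and DEX overlap in these 4 genes.

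These batch 1 calls depended on how RIN was treated. Without DEX library 12 (RIN 3.9) and DEX + RU-486 library 18 (RIN 5.6), so with the libraries of RIN 6 or above, 9 of the 31 genes were still higher and 1 lower, where 9.26% and 9.72% of all genes were, with Gfap at 2.49 (SE 0.64, adjusted p = 0.00957), Apoe at 1.86 (SE 0.36, adjusted p = 0.00145) and Sox9 at 1.14 (SE 0.25, adjusted p = 0.00304). With RIN as a covariate over all batch 1 libraries, 0 of the 31 genes were called, where 2.78% of all genes were. Gfap then had a log2 difference of 2.12 (SE 0.80, adjusted p = 0.146) and Gja1 one of 2.06 (SE 0.95, adjusted p = 0.237), and neither passed. Apoe stood at 1.17 (SE 0.48) and Plpp3 at 0.50 (SE 0.24), while Sox9 came to 0.0059 (SE 0.23, adjusted p = 0.993) and Fabp7 to -0.036 (SE 0.51, adjusted p = 0.978). Since RIN and treatment overlap little in batch 1, their parts cannot be told apart there. Control library 1, DEX library 11 and DEX + RU-486 library 14 had nearly the same RIN, 7.8, 7.8 and 7.9. In them Gfap was at 0.050, 1.98 and 1.45 CPM, Apoe at 0.601, 6.39 and 3.59 CPM and Aldoc at 2.96, 7.15 and 3.72 CPM, while Sox9 was at 7.11, 9.01 and 5.62 CPM. These are single libraries and carry no test. Control library 1 was the lowest of the 6 control libraries for Gfap (others 0.182 to 0.555 CPM) and Apoe (others 1.69 to 3.13 CPM) and the highest for Sox9, and it stood apart from the other controls in 5 genes of the list.

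In batch 2, 0 of the 31 genes were called between DEX and control by edgeR, where 115 of all genes were (0.565%). At an unadjusted p under 0.05, 3 were higher and 0 lower, where 8.58% and 8.61% of all genes were, and DESeq2 called 1 as higher, where it called 2.45% of all genes as higher. That gene was Slc1a3, at 15.4, 16.03, 13.1 and 12.7 CPM in the control libraries 21 to 24 and 25.6, 21.3, 21.5 and 18.2 CPM in the DEX libraries 27 to 30. The groups did not overlap, and the log2 fold change came to 0.61 (SE 0.14, edgeR adjusted p = 0.0565). Without DEX library 30 it passed at 0.69 (adjusted p = 0.0266).

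Of the genes higher in batch 1, Gja1 had the highest log2 fold change of the 31 here. It was at 1.12, 1.42, 0.334 and 0.566 CPM in control and 5.19, 0.622, 1.95 and 0.982 CPM in DEX libraries, which overlapped (1.37, SE 0.69, adjusted p = 0.319). Gfap was at 0.749, 0.949, 0.405 and 0.343 CPM in control and 1.48, 1.25, 0.661 and 0.400 CPM in DEX libraries (0.65, SE 0.53, 95% interval -0.40 to 1.69). Aldoc was at 7.15, 4.52, 4.31 and 4.71 CPM against 15.3, 8.98, 11.9 and 6.99 CPM (1.08, SE 0.37, adjusted p = 0.148), overlapping only at DEX library 30. Aldh1l1 was at 1.59, 1.40, 0.381 and 1.03 CPM against 3.47, 2.62, 1.92 and 1.64 CPM, without overlap (1.15, SE 0.44, adjusted p = 0.188). Groups without overlap, in the higher direction, numbered 2 of the 31 and 4.47% of all genes, and in the lower direction 0 of the 31 and 7.03%. Apoe was at 0.36 (SE 0.30), Fabp7 at 0.37 (SE 0.31), Bcan at 0.25 (SE 0.26), Plpp3 at 0.32 (SE 0.18), Sox9 at 0.089 (SE 0.17) and Acsl6 at -0.088 (SE 0.11).

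The difference between batches was itself tested as an interaction over all 36 libraries, and it called 0 of the 31 genes, against 0.172% of all genes. At an unadjusted p under 0.05, the log2 fold change with DEX was lower in batch 2 than in batch 1 for 5 genes and higher for 0. Over all genes 6.47% were lower and 6.39% higher in this sense. The 5 genes were Bcan (-2.05, SE 0.61, adjusted p = 0.126), Apoe (-1.52, SE 0.53), Gfap (-2.46, SE 0.87), Plpp3 (-1.06, SE 0.42) and Fabp7 (-2.02, SE 0.89). DESeq2 called 1 of them, Bcan (1.77% of all genes), and edgeR in the libraries of RIN 6 or above called Acsl6 (0.57, SE 0.16, adjusted p = 0.0419), where it called 4.25% of all genes.

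With DEX + RU-486 against control, no gene of the list was called over both batches by edgeR or DESeq2, where edgeR called 0% and DESeq2 0.594% of all genes. An unadjusted p under 0.05 was found for 6 as higher and for Glul as lower (-0.34, SE 0.10, adjusted p = 0.197; in libraries of RIN 6 or above -0.41, SE 0.087, adjusted p = 0.00449), where 4.19% and 6.63% of all genes had one. In batch 1, 8 of the 31 were higher and 2 lower, where 6.92% and 8.46% of all genes were. An unadjusted p under 0.05 was found for 11 as higher and 4 as lower, where 15.2% and 14.9% of all genes had one (30.2% in either direction). The groups did not overlap in 3 genes that were higher (Gja1, Apoe and Plpp3) and 1 that was lower (Acsl6), where 1.99% and 5.16% of all genes were so. The median was 0.36 against 0.053 over all genes. This comparison uses the same control libraries as that of DEX, so the values are set side by side and not read as a second result.

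In batch 1, Gja1 rose with both agents from 0.025, 0.196 and 0.295 CPM in control to 0.296, 1.00 and 3.36 CPM (2.83, SE 0.65, adjusted p = 0.00772; DEX alone 2.57). Gfap was at 0.0492, 1.40 and 4.40 CPM (2.62, SE 0.64, adjusted p = 0.00993; DEX alone 2.73), with library 13 below every control library. Apoe was at 3.59, 8.42 and 23.2 CPM (2.26, SE 0.41, adjusted p = 0.00207; DEX alone 2.06) and did not overlap with control. Aldoc came to 1.20 (SE 0.31, adjusted p = 0.0131), Plpp3 to 1.25 (SE 0.27, adjusted p = 0.00578) and Sox9 to 1.69 (SE 0.40, adjusted p = 0.00867).

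Fabp7 was higher at 2.06 (SE 0.57, adjusted p = 0.02), with 57.2 CPM in library 18 (RIN 5.6) and at most 16.3 CPM in the other five. Without library 18 alone it came to 1.21 (adjusted p = 0.11), without control library 5 to 1.94 (adjusted p = 0.0504), and in the libraries of RIN 6 or above to 1.24 (SE 0.35, adjusted p = 0.0229). Acsbg1 passed at 1.46 (SE 0.49, adjusted p = 0.0472) from 0.265 to 0.644 CPM in control to 0.482 to 1.62 CPM. It no longer passed when any one of control libraries 1, 3, 4, 5 or 6 or DEX + RU-486 libraries 13, 16, 17 or 18 was left out, with adjusted p values from 0.0587 to 0.108. Aldh1l1 (1.25, SE 0.46, adjusted p = 0.0701) and Bcan (0.83, SE 0.38, adjusted p = 0.143) did not pass.

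Acsl6 and Glul were the genes that were lower. Acsl6 was at 27.04, 31.97 and 43.6 CPM with both agents, below every control library (-0.59, SE 0.12, adjusted p = 0.00384). Glul was at 28.9, 35.3 and 43.5 CPM against 38.1, 49.0 and 55.2 CPM in control (-0.40, SE 0.11, adjusted p = 0.0151). With RIN as a covariate 0 of the 31 were called in this comparison too, where 2.6% of all genes were. In the libraries of RIN 6 or above 7 were higher and 2 lower, where 6.36% and 7.1% of all genes were. With the covariate Glul stood at -0.46 (SE 0.13, adjusted p = 0.0523) and Apoe at 1.52 (SE 0.46, adjusted p = 0.0711).

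**Figure D4:**
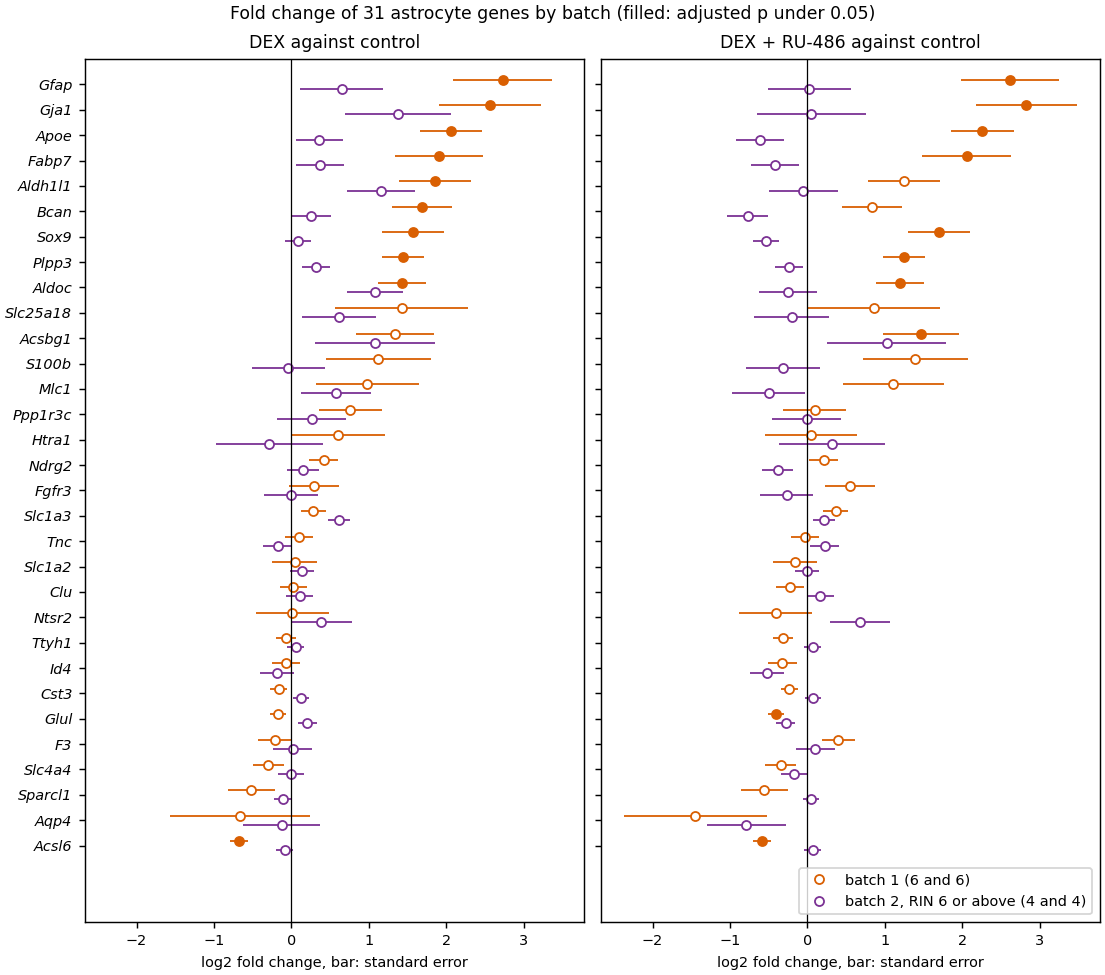
Log2 fold change against control with its standard error for the 31 genes, with DEX on the left and DEX + RU-486 on the right, in batch 1 (6 and 6 libraries) and in batch 2 of RIN 6 or above (4 and 4); filled points passed an adjusted p of 0.05. All filled points are from batch 1, 10 in each panel.

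In batch 2, DEX + RU-486 against control called 0 of the 31 by edgeR and by DESeq2. Over all genes edgeR called 1 (0.00491%) and DESeq2 0.157%. At an unadjusted p under 0.05, 0 were higher and 4 lower: Sox9 (-0.53, SE 0.17), Bcan (-0.77, SE 0.26), Id4 (-0.53, SE 0.22) and Glul (-0.28, SE 0.12), with adjusted p values from 0.531 to 0.629. Over all genes 3.75% were higher and 3.8% lower at that level (7.55% in either direction). Sox9 and Id4 lay wholly below control, as did 4.11% of all genes. Over all libraries, those of RIN under 3 included, the batch difference of this comparison called 0 of the 31 (0.0835% of all genes). It had 5 at an unadjusted p under 0.05, all with a lower log2 fold change in batch 2 (5.55% of all genes), led by Apoe (-2.39, SE 0.54, adjusted p = 0.062). DESeq2 called 2 of them, Apoe and Gfap (1.56% of all genes). In the libraries of RIN 6 or above edgeR called 4, where it called 1.91% of all genes: Sox9 (-1.68, SE 0.33, adjusted p = 0.00943), Apoe (-2.50, SE 0.52, adjusted p = 0.0137) and Plpp3 (-1.31, SE 0.33, adjusted p = 0.0374), with a lower difference from control in batch 2, and Acsl6 (0.62, SE 0.16, adjusted p = 0.0446), with a higher one.

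The effect of adding the antagonist to DEX was read from DEX + RU-486 against DEX. Over both batches and in batch 1 it called 0 of the 31 by edgeR and by DESeq2, where edgeR called 0% and DESeq2 0.00983% of all genes each time. At an unadjusted p under 0.05, batch 1 had F3 higher (0.61, SE 0.22) and Bcan (-0.85, SE 0.38) and Glul (-0.23, SE 0.11) lower, where 1.77% and 2.32% of all genes were. Over both batches only Glul (-0.31, SE 0.10) and Bcan (-0.72, SE 0.35) had an unadjusted p under 0.05, both lower, where 1.23% of all genes did.

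In batch 2, edgeR called 0 of the 31 genes between DEX + RU-486 and DEX, and 8 of the 31 log2 fold changes were positive. The median log2 fold change of the 31 was -0.34, against 0.012 over all genes. At an unadjusted p under 0.05, 11 genes were lower and Tnc was higher (0.40, SE 0.19), where 9.3% and 10% of all genes were, and DESeq2 called 5 as lower, where it called 3.79% of all genes as lower. edgeR called 0.747% of all genes as higher and 0.811% as lower. Groups lay wholly below DEX in 2 of the 31, Aldh1l1 and Sox9, and in 3.93% of all genes.

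Glul was at 43.6, 48.8, 40.2 and 33.95 CPM in the DEX libraries 27 to 30 and 32.5, 35.9, 24.3 and 26.3 CPM in the DEX + RU-486 libraries 33 to 36 (-0.49, SE 0.13, adjusted p = 0.0585). Bcan was at 23.2, 16, 19.8 and 10.8 CPM against 10.4, 12.5, 4.81 and 6.59 CPM (-1.03, SE 0.26, adjusted p = 0.0585). Sox9 was at 17.6, 14.6, 13.6 and 13.3 CPM against 10.7, 12.9, 7.47 and 7.35 CPM (-0.62, SE 0.17, adjusted p = 0.0639). In all 3, libraries 35 and 36 were the lowest.

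Aldoc was at 15.3, 8.98, 11.9 and 6.99 CPM against 5.74, 7.54, 1.80 and 2.15 CPM (-1.33, SE 0.37, adjusted p = 0.0696). Plpp3, at -0.55 (SE 0.18), was the other gene that DESeq2 called beside these 4. Libraries 35 and 36 also had the highest RIN of batch 2, 8.7 and 8.5, against 7.4 to 7.7 in the DEX libraries compared, and the part of RIN in this difference was not tested. Leaving out DEX library 30, DEX + RU-486 library 33 or DEX + RU-486 library 34 gave 5, 2 and 6 calls, all lower. Glul and Bcan were called each time. With library 30 or library 34 out Aldoc, Apoe and Sox9 were called too, and with library 34 out also Fabp7. The share of all genes called in these fits is not given here, so the counts cannot be set against it. Over all 18 libraries of batch 2 the count was 0.

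The level of many of these genes also differed with RIN in libraries that the batch 1 comparisons did not use, and what else set those libraries apart was not tested. In batch 2, the 6 libraries of RIN under 3 were compared with the 12 of RIN 6 or above, with treatment as a covariate: 12 of the 31 genes were higher and 5 lower, where 28.4% and 26.8% of all genes were. Sox9 was the most raised, at 57.1 and 151 CPM in the control libraries of RIN 2.7 and 1.8 and 13.01 to 15.5 CPM in the 4 intact ones. It stood at 38.8 and 158 CPM in the DEX and 187 and 48.4 CPM in the DEX + RU-486 libraries of low RIN, and its log2 fold change came to 3.07 (SE 0.26, adjusted p = 3.8e-09). Every library of low RIN lay above every intact one.

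Acsbg1 (2.32, SE 0.49), Aldh1l1 (2.11, SE 0.36), Fabp7 (1.97, SE 0.24), Aldoc (1.73, SE 0.27), Aqp4 (1.58, SE 0.50), Gja1 (1.39, SE 0.56), S100b (1.26, SE 0.34) and Gfap (1.13, SE 0.39) were also higher at low RIN. So were Ppp1r3c, a glycogen-targeting phosphatase subunit (0.94, SE 0.37), Plpp3 (0.86, SE 0.16) and Glul (0.31, SE 0.12). Acsl6 was lower, at 13.2 to 20.96 CPM in the 6 libraries of low RIN against 32.8 to 51.2 CPM in the 12 intact ones (-1.54, SE 0.11, adjusted p = 2.2e-10). Sparcl1 (-1.26, SE 0.10), F3 (-0.74, SE 0.30), Cst3 (-0.53, SE 0.12) and Ndrg2 (-0.46, SE 0.17) were lower too.

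Of the 9 genes higher with DEX in batch 1, 7 (77.8%) were also higher at low RIN in batch 2, where 63.3% of all genes higher with DEX in batch 1 were, and these 7 are 58.3% of the 12. They were Aldh1l1, Aldoc, Fabp7, Gfap, Gja1, Plpp3 and Sox9, while Apoe and Bcan were not among the 12. Acsl6 was lower in both. These comparisons share no library, and the part of RIN in the batch 1 differences cannot be told apart from that of the treatment.

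**Figure D5:**
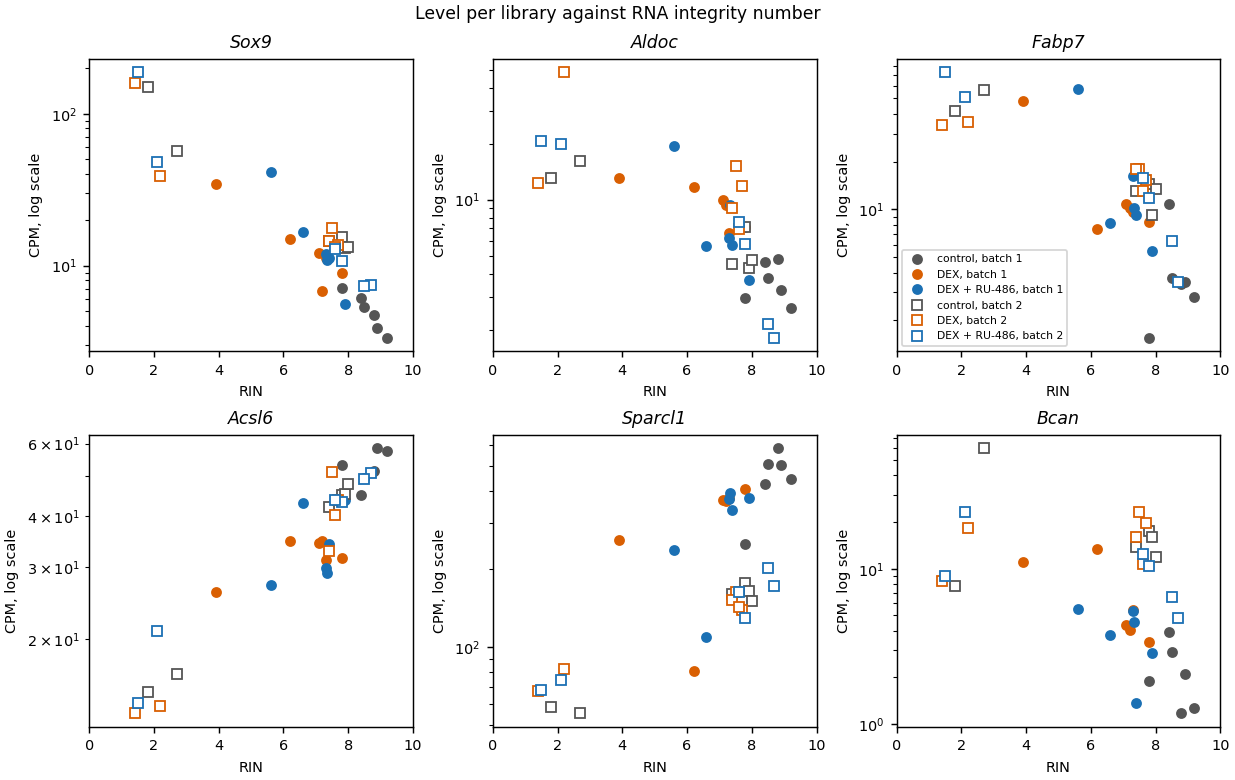
CPM on a log axis against RIN for 6 genes, one point per library, with filled circles for batch 1 and open squares for batch 2, coloured by group. Sox9 and Fabp7 are highest, and Acsl6 lowest, in the 6 libraries of RIN under 3 and in the 2 of batch 1 with RIN 3.9 and 5.6, while control libraries of RIN 6 or above span 1.17 to 3.91 CPM in batch 1 and 11.9 to 17.6 CPM in batch 2 for Bcan.

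Between batches, over the 28 libraries of RIN 6 or above and with treatment as a covariate, 10 of the 31 genes were higher and 6 lower in batch 2, where 23.4% and 24.7% of all genes were. Slc25a18 (2.31, SE 0.40), Bcan (1.89, SE 0.24), Mlc1 (1.62, SE 0.37), Apoe (1.25, SE 0.28) and S100b (1.04, SE 0.29) led the higher ones. With the control libraries alone, 12 were higher and 5 lower, where 21.2% and 20.5% of all genes were, and several differences were larger: Bcan came to 2.77 (SE 0.27), Apoe to 2.54 (SE 0.32), Fabp7 to 1.57 (SE 0.37) and Sox9 to 1.48 (SE 0.18), and Gja1 (2.26, SE 0.51) and Plpp3 (0.87, SE 0.20) were called as well. With all treatments the others called as higher were Slc4a4, Fabp7, Fgfr3, Sox9 and Ndrg2, from 0.34 to 0.81. Sparcl1 (-1.18, SE 0.18), Clu (-0.82, SE 0.11), Tnc, Cst3, Ttyh1 and Glul were lower. For Bcan the intact control libraries ran from 1.17 to 3.91 CPM in batch 1 and from 11.9 to 17.6 CPM in batch 2, above every DEX library of batch 1 but the one at 13.4 CPM.

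Other astrocyte genes, 41 that are not on the list above, of which 39 were tested, moved in batch 1 with DEX in 20 cases, 15 higher and 5 lower, with a median of 1.00, where 8.99% and 9.99% of all genes were. The same list had 20 higher and 5 lower at RIN under 3 in batch 2, with a median of 1.02, where 28.4% and 26.8% of all genes were. The genes called with DEX in batch 1 included Mfge8, a secreted bridge for phagocytosis (1.69, SE 0.27), and the potassium channel Kcnj10 (2.69, SE 0.51), both higher. The GABA transporter Slc6a11 (-0.90, SE 0.18) was lower in that comparison. With DEX in batch 2, 2 of the 39 were higher, among them Daam2 (0.95, SE 0.20, adjusted p = 0.0409), and 0 lower, where 0.329% and 0.236% of all genes were. With the antagonist against DEX in batch 2, 1 of the 39 was higher, Lhx2 (0.63, SE 0.14), and 3 were lower, among them Pla2g7 (-1.60, SE 0.37) and Daam2 (-0.98, SE 0.20), where 0.747% and 0.811% of all genes were.

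With DEX in batch 1, 2 of 7 tested genes shared by all reactive states of astrocytes (Cd44 and Vim) were higher, 0 of 8 of the A1 type were called and 1 of 9 of the A2 type was lower, where 8.99% of all genes were higher and 9.99% lower. At RIN under 3 in batch 2, 7 of the 7 shared genes, 2 of 8 of the A1 type and 3 of 9 of the A2 type were higher, where 28.4% of all genes were. With DEX in batch 1 again, where 8.99% of all genes were higher and 9.99% lower, 1 of 9 genes of the glutamate and glutamine cycle outside the list was higher, the glutamine transporter Slc38a3 (2.81, SE 0.68), and 4 were lower, among them glutamate dehydrogenase Glud1 (-0.42, SE 0.099) and the neuronal vesicular transporter Slc17a6 (-0.57, SE 0.18). In that comparison 1 of 12 glycogen genes was higher and 5 lower, and of 16 factors of the astrocyte lineage 4 were higher and 1 lower. At RIN under 3 in batch 2, where 28.4% of all genes were higher and 26.8% lower, 10 of the 16 lineage factors were higher and 0 lower. There 2 of the 9 genes of the glutamate cycle were higher and 5 lower, and 1 of the 12 glycogen genes was higher and 3 lower. The glucocorticoid target list had 4 of 9 higher with DEX in batch 1: Dusp1 (1.52, SE 0.22), Per1 (0.80, SE 0.20), Tsc22d3 and Ddit4 (0.37, SE 0.13). With DEX + RU-486 against control in batch 1, 3 of these 9 targets were higher, where 6.92% of all genes were. At RIN under 3 in batch 2, 5 of the 9 were higher and 1 lower, where 28.4% and 26.8% of all genes were. The lists of reactivity, of the glutamate cycle, of glycogen, of lineage factors and of glucocorticoid targets had no call with DEX in batch 2 by edgeR.

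Markers of other cell types differed beside the astrocyte genes, where 8.99% of all genes were higher and 9.99% lower. With DEX in batch 1, 10 of 12 oligodendrocyte lineage genes were higher, led by the myelin gene Mobp (3.53, SE 0.47), and their summed level ran from 606 to 2718 CPM against 78.3 to 337 CPM in control. Markers of radial glia and progenitors were higher in 5 of 6 (41.2 to 183 CPM against 13.02 to 37.2 CPM), and of dividing cells in 3 of 7 (11.2 to 67.1 CPM against 3.48 to 15.1 CPM). Neuronal markers were lower in 8 of 12 (3311 to 4299 CPM against 4633 to 5773 CPM). Microglial markers, 0 of 6 called, summed to 0.379 to 1.75 CPM in DEX and 0.421 to 1.67 CPM in control libraries. Endothelial genes were higher in 2 of 6 (1.74 to 9.61 CPM against 0.626 to 2.42 CPM) and mural or fibroblast genes in 1 of 6 (0.576 to 9.35 CPM against 1.30 to 4.61 CPM). Ependymal genes were called in 0 of 3 (3.22 to 6.45 CPM against 4.51 to 7.81 CPM). Of all these markers only the ependymal gene Tmem212 was at 0 in every control and DEX library of batch 1. With DEX + RU-486 against control in batch 1, where 6.92% of all genes were higher and 8.46% lower, oligodendrocyte lineage genes were higher in 8 of 12 (262 to 1123 CPM), radial glia genes in 5 of 6 (22.2 to 165 CPM), dividing cell genes in 3 of 7 (10.03 to 68.3 CPM), endothelial genes in 3 of 6 (1.71 to 15.3 CPM) and mural or fibroblast genes in 1 of 6 (1.61 to 13.8 CPM). Neuronal markers were lower in 6 of 12 (3671 to 4362 CPM), and microglial markers were called in 0 of 6 (0.559 to 4.08 CPM). At RIN under 3 in batch 2, oligodendrocyte lineage genes were higher in 10 of 12, dividing cell genes in 7 of 7, endothelial genes in 5 of 6, mural or fibroblast genes in 4 of 6 and radial glia genes in 3 of 6, where 28.4% of all genes were. Neuronal markers were there higher in 6 and lower in 5 of 12. The part of these markers in the astrocyte results was not tested.

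With DEX against control in batch 2 of RIN 6 or above, 2 of 12 oligodendrocyte lineage genes were higher, where 0.329% of all genes were. Their sum ran from 798 to 1272 CPM against 465 to 620 CPM in control, and the other cell type lists had no call. With the antagonist against DEX in batch 2, 7 of 12 oligodendrocyte lineage genes were lower, where 0.811% of all genes were, with Mobp at -2.80 (SE 0.22). Their sum ran from 160 to 455 CPM against 798 to 1272 CPM. In the same comparison the neuronal markers had 0 of 12 called and sums of 3491 to 3678 CPM against 3374 to 3763 CPM. Whether these values are linked to those of the astrocyte genes was not tested.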

How the data were processed

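RNA of 36 cultures was sequenced. The authors aligned reads with HISAT2 2.1.0 and counted them per gene with Subread 1.5.0-p2, and deposited one table of raw counts per gene, not normalized, with Ensembl identifiers that were named from GENCODE M21 (GRCm38). The labels name poly(A) RNA and the methods a total RNA library, which was not resolved. Genes with a mean count above 5 were kept. Tests used edgeR 4.0.16 in R 4.3.3 (quasi-likelihood F test, TMM factors, Benjamini-Hochberg adjustment over all 20355 genes, threshold 0.05), with batch as a covariate where both batches entered. CPM used TMM factors, and TPM the exon length of each gene. SE is the log2 fold change divided by the root of F. DESeq2 1.42.0, other scaling and filters, RIN as a covariate, RIN limits, thinned counts and leaving out each library were alternatives. Thinning, leaving out each library of batch 1, and RIN as a covariate within libraries of RIN 6 or above were chosen after seeing the data. Named with values were genes of the list called between treatments, the markers Gfap, Aqp4, Aldh1l1, Slc1a2, Slc1a3, Gja1, S100b, Sox9 and Glul, at most 4 called genes of each other list by smallest p, and Fkbp5 and Tsc22d3. A gene that met this rule is not reported here. Others of the 33 are named to account for every gene. The members and gene lists were chosen with earlier results of these data known. On simulated counts for batch 1, 99 of 100 genes changed 4-fold and 81 of 100 changed 2-fold were recovered. For batch 2 of RIN 6 or above the numbers were 99 and 74 of 100. The changed genes were drawn only from those with higher mean counts. These rates therefore do not cover genes of low counts, such as Gfap, Gja1, S100b, Aqp4 and Aldh1l1. Of 90 pairs of replicate libraries, none agreed within sampling noise. Intervals from counts of 0 cover counting error only.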

Additional observations from a re-analysis of the deposited data

Results flagged for a closer look

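In 17 of 186 sets of one gene in one group, the highest or lowest library stood apart from the rest of its group by Dixon's gap ratio, where chance gives about 1 in 20. Control library 1 of batch 1 stood apart in 5 of them. It was at 31.7 CPM for Slc1a2 (others 9.69 to 15.1), 18.4 CPM for Clu (others 8.55 to 10.4) and 70.2 CPM for Tnc (others 27.4 to 36), and low at 0.025 CPM for Gja1 (others 0.153 to 0.295) and 4.58 CPM for Ndrg2 (others 8.81 to 12.1).

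DEX library 7 of batch 1 was at 46 CPM for Ttyh1 (others 29.8 to 33.7), 33.6 CPM for Slc1a2 (others 10.1 to 15), 25 CPM for Id4 (others 12.4 to 15.7) and 80.5 CPM for Sparcl1 (others 257 to 406). DEX library 12 was at 47.9 CPM for Fabp7 (others 7.57 to 10.9) and 26.1 CPM for Acsl6 (others 31.3 to 34.7). DEX library 10 was at 0 CPM for Mlc1 (others 0.379 to 0.963), and DEX + RU-486 library 18 at 0 CPM for Ntsr2 (others 0.422 to 1.15).

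In batch 2, DEX library 30 was at 0.91 CPM for Mlc1 (others 2.31 to 2.54) and 33.3 CPM for Tnc (others 22 to 22.5). DEX + RU-486 library 34 was at 1.18 CPM for Slc25a18 (others 0.45 to 0.484), and library 35 at 0.506 CPM for Aqp4 (others 0.272 to 0.3).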

How the results depend on the processing

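Alternatives for single genes were run on the log2 fold changes called in batch 1 for DEX or DEX + RU-486 against control. Of the recomputed values, 302 kept their direction and side of the threshold, 37 kept the direction only, and 1 reversed: Fabp7 with DEX in batch 1, at -0.036 with RIN as a covariate. For DEX against control over both batches, the 0 calls among the 31 genes became 4 with DESeq2, 2 with RIN as a covariate and 10 in libraries of RIN 6 or above. All genes called there were 3 higher and 2 lower with edgeR, 234 and 223 with DESeq2, 187 and 268 with RIN as a covariate, and 1594 and 2418 in libraries of RIN 6 or above. For DEX + RU-486 against control over both batches they became 1 with RIN as a covariate (0.761% of all genes), 2 in libraries of RIN 6 or above (8.86%) and 2 in those with RIN as a covariate (1.74%), all lower, with Glul among them each time (-0.38, -0.41 and -0.35). Beside Glul, edgeR called Slc4a4 in libraries of RIN 6 or above (-0.38, SE 0.12, adjusted p = 0.0487). In those libraries with RIN as a covariate it called Id4 (-0.68, SE 0.14, adjusted p = 0.0117). In batch 1, RIN as a covariate gave 0 for both agents' comparisons with control, with 204 genes higher and 361 lower for DEX and 164 and 365 for DEX + RU-486. Leaving out each library gave 9 to 11 calls for DEX and 8 to 10 for DEX + RU-486. In batch 2, DESeq2 gave 1 for DEX and 5 for DEX + RU-486 against DEX, and leaving out each library gave 0 to 1 and 0 to 6. For the fits with a library left out, in either batch, the share of all genes called is not given here. The batch difference had 1 call with DESeq2 (1.77% of all genes; Bcan, -2.11) and 1 in libraries of RIN 6 or above (4.25%; Acsl6, 0.57) for DEX, and 2 (1.56%) and 4 (1.91%) for DEX + RU-486. Other fold changes of single genes were not recomputed for this summary. The cause was not tested. No paired analysis was possible because no replicate number is shared between groups. Counts of a few reads limit Gfap, Gja1, Aqp4 and Slc25a18.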
